A study of Mus musculus with 6 samples.

Results

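Cyclic nucleotide phosphodiesterases break down the second messengers cAMP and cGMP. Their transcripts were followed here through 10 genes, Pde1a, Pde3b, Pde4a, Pde4b, Pde4c, Pde4d, Pde5a, Pde7a, Pde8a and Pde10a, chosen by name. The platform annotation used here named a probe set for 9 of them, among 18193 genes in all, and none for Pde4c, for which no value was analysed here. Where a gene had several probe sets the brightest on average stood for it, and the others, 29 in all with the chosen ones, served as a check. In 5 genes (Pde4a, Pde4b, Pde4d, Pde5a and Pde7a) the mean signal over the 6 arrays exceeded 85.5, the median over all probe sets, and these were tested. Pde1a, Pde3b, Pde8a and Pde10a lay below that level.

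The samples were 6 lines of mpkCCD cells, an immortalised mouse line with properties of the principal cells of the kidney's cortical collecting duct. All were kept with dDAVP, an analog of vasopressin, at 0.1 nM for 5 days, so that no line was measured without the hormone analog. Clone 2 carried the label of a line without the water channel aquaporin 2 (AQP2). The expressing lines were clones 3, 9, 10 and 11 with the original mpkCCD population. Each line was 1 Affymetrix array and each clone a single line, so line, culture and array cannot be told apart, p-values measure the spread between arrays, which may in part be technical, and traits of clone 2 other than AQP2 come with its label.

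As background, intracellular cAMP is set by adenylyl cyclases, which vasopressin activates through its V2 receptor and the stimulatory G protein, and by phosphodiesterases, which end the signal. The PDE4, PDE7 and PDE8 families act on cAMP, PDE5 acts on cGMP, and PDE1, PDE3 and PDE10 act on both. In principal cells cAMP drives both the movement of AQP2 to the apical membrane and the transcription of Aqp2, and in mice with a hereditary urine concentrating defect high cAMP phosphodiesterase activity in the collecting duct is known to blunt the action of vasopressin. The study asked which transcripts follow AQP2 among lines, and the phosphodiesterases were set against that label and against the Aqp2 signal itself.

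Aqp2 had a signal of 159.3 in clone 2, against 1698 in clone 3, 4683 in clone 9, 1066 in clone 10, 6578 in clone 11 and 3822 in the original cells. Of 12 principal cell markers 10 passed the signal filter, among them Avpr2, the V2 receptor. The summed signal of all 12, Aqp2 among them, was 12087 in clone 2, against 27637 to 32899 in the expressing lines. Avpr2 itself had 1742 in clone 2, inside its range of 1417 to 1746 in those lines. Markers of neurons, fibroblasts and endothelial cells did not pass, 3 of 8 passed for intercalated cells, and 1 each passed for smooth muscle, proximal tubule, leukocytes and the joint list of Henle loop and distal convoluted tubule. Summed signals of whole lists lay outside the expressing lines for the last 3 of these, with 306 in clone 2 against 944 to 1258 for proximal tubule, 723 against 236 to 486 for leukocytes, and 715 against 294 to 416 for the joint list. Their part in the results below was not tested. The median signal of an array was 79.6 for clone 2 and 84.3 to 88.6 for the others.

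None of the 5 tested phosphodiesterases was called in clone 2, in the slope on Aqp2 or in an expressing line against the other expressing lines. There were 0 calls at an adjusted p under 0.05 in each comparison (limma), which does not show that the levels were equal. Over all 22518 probe sets 2.49% were called in the clone 2 comparison, and over 22517 probe sets 1.76% in the slope on Aqp2. At an unadjusted p under 0.05 there were also 0 of 5 members in each of these comparisons, a threshold that 20% of all probe sets passed for clone 2 and 19.9% for the slope. With 5 members, none of these counts sets them apart from other genes. All 5 had a negative difference in clone 2 (median -0.26 on the log2 scale, against -0.03 over all probe sets). With quantile normalization or median centring of the arrays 4 of 5 were negative. Regardless of sign, the median size of the difference was 0.26 in the members and 0.27 over all probe sets past the filter. The median range of the members over the 6 lines was 0.54 on the log2 scale, against 0.63 over all probe sets past the filter.

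**Figure D1:**
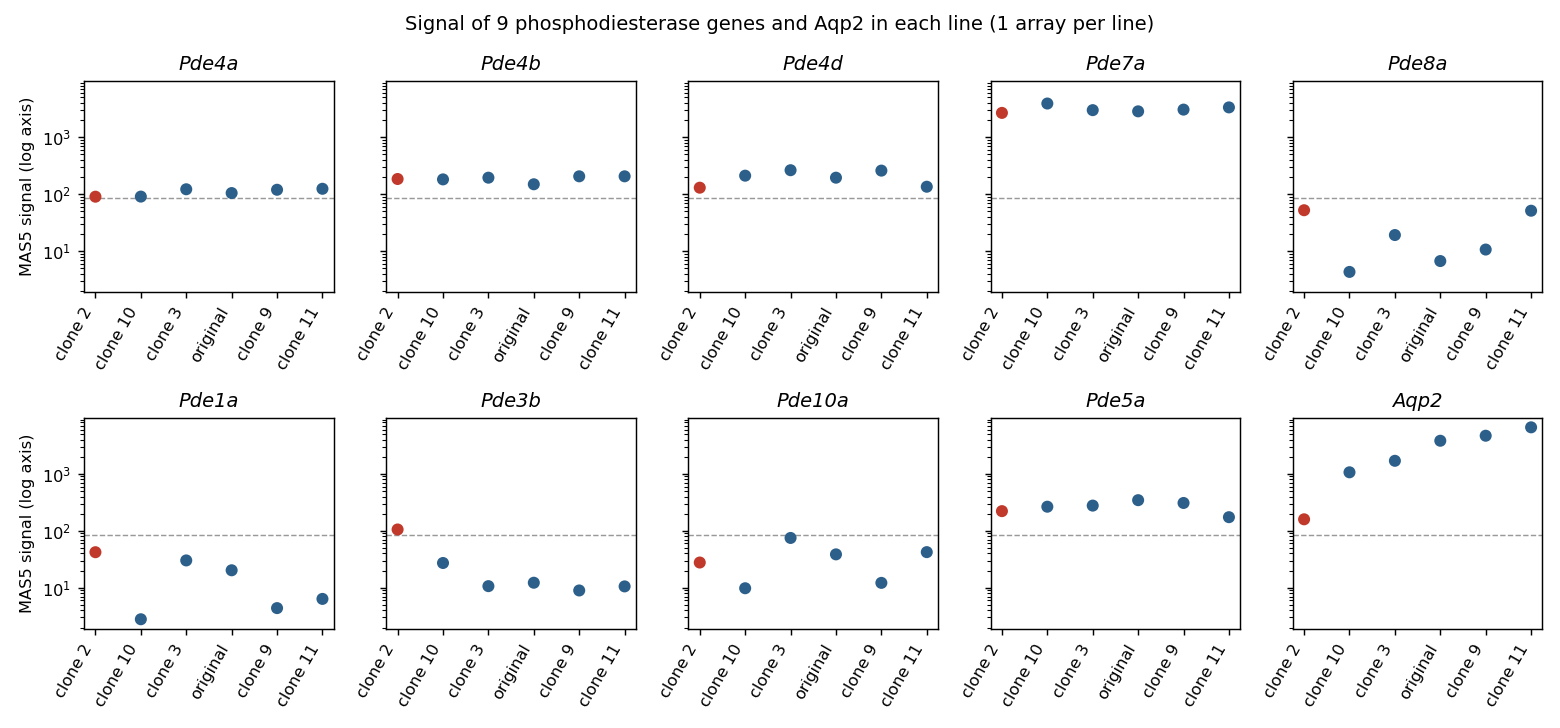
Signal (MAS5 units, log axis) of the chosen probe set of 9 phosphodiesterase genes and Aqp2 in clone 2 (red, left) and the expressing lines (blue, in the order of their Aqp2 signal), 1 array per point, with the filter level of 85.5 as a dashed line. The 5 tested genes stay within 2.03-fold over the lines while Aqp2 spans 41.3-fold. Levels of different genes come from different probes and are not comparable.

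Pde4d and Pde5a had the widest ranges of the tested members and the most alike profiles, with a Pearson r of 0.74 between them over the 6 lines, a description whose points share arrays. This r is that of the chosen probe sets, and whether the genes share regulation was not tested. The 250 bases before the annotated starts of this pair in RefSeq are shown, on assembly GRCm38.p6 and both on the plus strand. Capitals mark any of the searched elements, the GC box GGGCGG, the CCAAT box CCAAT, the TATA element TATAA and the cAMP response element half-site TGACG, each on both strands.
Pde5a, chr3:122728908-122729157: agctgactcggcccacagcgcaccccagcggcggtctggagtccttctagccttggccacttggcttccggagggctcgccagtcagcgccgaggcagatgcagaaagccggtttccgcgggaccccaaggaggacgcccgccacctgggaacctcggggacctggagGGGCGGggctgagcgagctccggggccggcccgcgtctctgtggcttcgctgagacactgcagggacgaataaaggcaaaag
Pde4d, chr13:108653927-108654176: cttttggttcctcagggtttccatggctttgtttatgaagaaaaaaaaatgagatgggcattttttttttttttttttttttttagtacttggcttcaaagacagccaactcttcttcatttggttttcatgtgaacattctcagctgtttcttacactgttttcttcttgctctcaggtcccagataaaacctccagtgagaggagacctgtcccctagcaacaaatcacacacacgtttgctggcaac
The Pde5a window had a GC content of 68.4% and held 1 GC box, an element found in 32.7% of all 32851 windows. The Pde4d window had a GC content of 38.8% and held none of the searched letters. The median GC content of all windows was 52.4%.

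The half-site TGACG is the core of the element bound by CREB, the transcription factor that protein kinase A activates. Windows were matched for 8 members, those other than Pde3b and Pde7a, with 17 windows in all because several genes have more than 1 annotated start. The half-site lay in 4 of the 17 windows, in 1 window each of 4 genes, against 17.8% of all windows, and the full palindrome TGACGTCA in 0 of 17, against 1.55%. It is shown in capitals with the 10 bases on either side for the genes of tested members that held it, where it lies 34 bases (Pde4b) and 50 bases (Pde4a) before a start.
Pde4b, chr4:102421511-102421535, plus strand: tttggctgcaCGTCAattttctcat
Pde4a, chr9:21184041-21184065, plus strand: cacagctcgaCGTCAggctggggag
These matches describe the letters of the windows, and no binding was measured.

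Among the cAMP-specific enzymes past the filter, Pde4d had the largest difference. It encodes a rolipram-sensitive phosphodiesterase with many isoforms, known as a regulator of cAMP near receptors and anchoring proteins. Its signal was 129.7 in clone 2, against 263 in clone 3, 259 in clone 9, 211 in clone 10, 135 in clone 11 and 194 in the original cells. Clone 2 was thus below every expressing line, but clone 11, the line with the most Aqp2, stood only slightly higher. The expressing lines averaged 212 ± 52.6 (SD, n = 5), and the log2 difference of -0.61 (SE 0.34, 95% interval -1.37 to 0.16, limma adjusted p = 0.356) did not pass. On the fold scale of signal plus offset this interval ran from 0.386 to 1.12, so a large decrease and a small increase both lay within it. The median difference of the 384 genes on chromosome 13, where Pde4d lies, was 0.20, opposite in sign to that of Pde4d. A second Pde4d probe set, below the filter at a mean signal of 17.9, gave 0.09 (SE 0.41, limma adjusted p = 0.958 with no filter), so the sign was not shared by both.

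Pde4a, a long-known PDE4 gene named for its homology to the fly dunce gene, had a signal of 90.1 in clone 2, against 122 in clone 3, 119 in clone 9, 90.5 in clone 10, 124 in clone 11 and 104 in the original cells. Clone 2 and clone 10, the lines with the least Aqp2, were the lowest and almost equal. The expressing lines averaged 112 ± 14.3 (SD, n = 5), and the log2 difference was -0.26 (SE 0.30, 95% interval -0.95 to 0.43, limma adjusted p = 0.679). Pde4a was the tested member closest to the filter, with a mean signal of 108 against the level of 85.5, and it had no second probe set.

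Pde4b, the PDE4 gene best known for its induction in immune cells, had a signal of 184 in clone 2, against 194 in clone 3, 205 in clone 9, 181 in clone 10, 205 in clone 11 and 149 in the original cells. Clone 2 lay inside the range of the expressing lines, which averaged 187 ± 23.5 (SD, n = 5). The log2 difference was -0.01 (SE 0.26, 95% interval -0.59 to 0.57, limma adjusted p = 0.986), and its sign depended on the scaling of the arrays. Of the 6 Pde4b probe sets, 3 passed the filter and gave differences from -0.23 to -0.01, none called. The 3 below it gave -0.37, -0.26 and 0.09 with no filter. Their profiles disagreed: r over the 6 lines was 0.99 for 1 pair of these probe sets and -0.26 and -0.22 for the pairs with the chosen one, so statements on Pde4b depend on which probe set is read.

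Pde7a, which encodes a high-affinity cAMP phosphodiesterase insensitive to rolipram, was measured by 7 probe sets, all past the filter. The signal of the chosen one was 2673 in clone 2, against 2987 in clone 3, 3052 in clone 9, 3904 in clone 10, 3339 in clone 11 and 2846 in the original cells. Clone 2 was lowest here by a small step, and clone 10 was highest. The expressing lines averaged 3225 ± 419 (SD, n = 5), and the log2 difference was -0.26 (SE 0.18, 95% interval -0.66 to 0.14, limma adjusted p = 0.446). The 7 probe sets gave differences from -0.32 to -0.04 (limma adjusted p from 0.311 to 0.958). Clone 2 was lowest in 3 of them and the original cells in 4, while clone 10 was highest in 6 and clone 11 in 1. Their pairwise r over the lines lay between 0.25 and 0.97, with a median of 0.69.

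**Figure D2:**
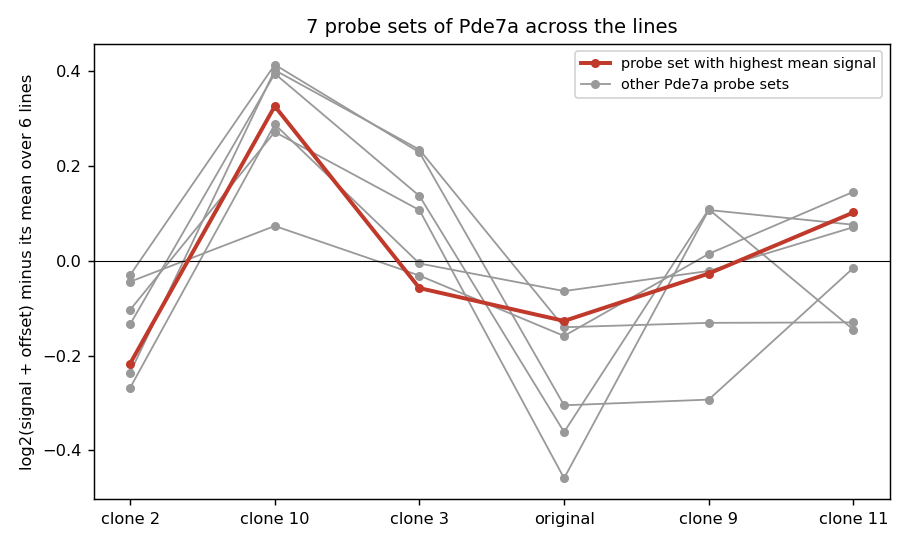
Pde7a probe sets by line, each as log2(signal + offset) minus its own mean over the 6 lines, with clone 2 at the left and the expressing lines in the order of their Aqp2 signal. The chosen probe set is red and the other 6 are grey, and clone 10 is the highest line in 6 of the 7.

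Pde5a encodes the cGMP-specific phosphodiesterase inhibited by sildenafil, and it was the only tested member whose product does not act on cAMP. Its signal was 222 in clone 2, against 277 in clone 3, 308 in clone 9, 265 in clone 10, 174 in clone 11 and 345 in the original cells. Clone 2 was second lowest, above clone 11, so the groups overlapped. The expressing lines averaged 274 ± 64.1 (SD, n = 5), and the log2 difference was -0.25 (SE 0.32, 95% interval -0.98 to 0.48, limma adjusted p = 0.704). A second probe set past the filter gave -0.09 (limma adjusted p = 0.908) and also had its lowest value in clone 11 and its highest in the original cells, with r of 0.75 between the pair over the lines. Another probe set, below the filter, gave 0.07 (SE 0.42, limma adjusted p = 0.967 with no filter).

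**Figure D3:**
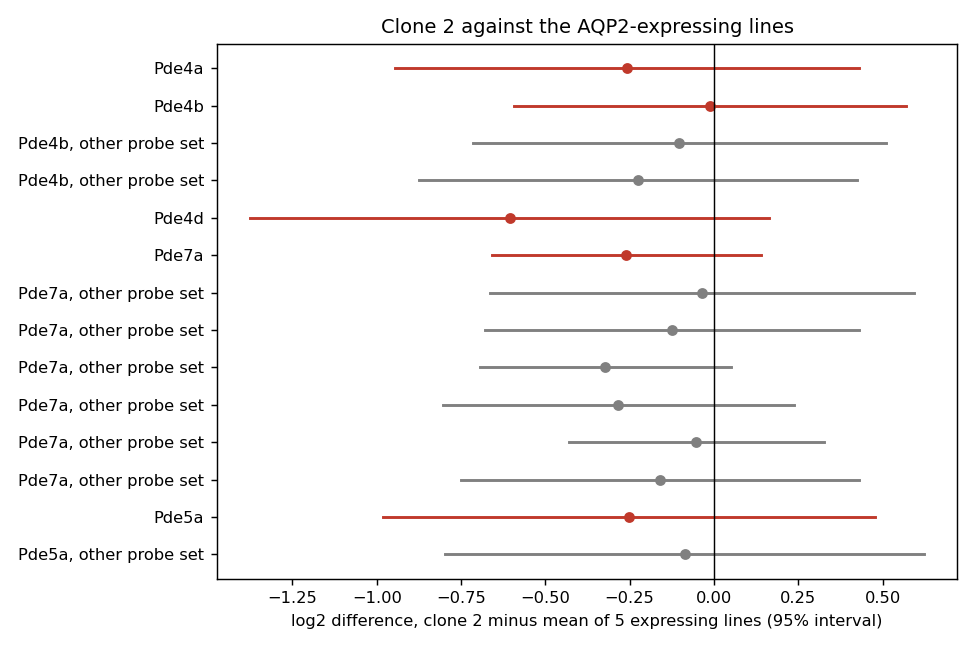
Log2 difference of clone 2 from the mean of the 5 expressing lines with its 95% interval for all 14 member probe sets past the filter, chosen probe sets in red and other probe sets of the same gene in grey. All 14 points lie below 0, every interval crosses 0, and the widest difference is that of Pde4d at -0.61.

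Taking the tested members by line, clone 2 was lowest of the 6 lines in Pde4a, Pde4d and Pde7a, that is in 3 of 5, where 29.3% of all probe sets past the filter had clone 2 lowest and 24.3% had it highest. Under median centring 10 of the 14 member probe sets were negative, against 14 as deposited, and the median over all probe sets was 0.06, against -0.03 as deposited. The genes of chromosome 3, which holds Pde5a and Pde7a, had a median difference of -0.20 (512 genes), those of chromosome 4, with Pde4b, 0.19 (645 genes), and those of chromosome 9, with Pde4a, -0.02 (575 genes). The part of these chromosome-wide shifts in the members' differences was not tested.

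Each expressing line was also set against the other 4, with clone 2 left out. Of the 25 pairs of member and line 0 were called (limma, smallest adjusted p = 0.691), and 3 had an unadjusted p under 0.05, as 5.21% of all pairs of probe set and line did. These were Pde5a and Pde4d in clone 11, with log2 differences of -0.72 (SE 0.24) and -0.70 (SE 0.27), and Pde7a in clone 10, at 0.35 (SE 0.15). The share among these 25 pairs, from the chosen probe sets, was higher than over all pairs. Counting the other member probe sets past the filter as well, 4 of 70 pairs had such a p. The pairs share genes and arrays, and no excess was tested. Over all probe sets 0.573% were called in clone 9, 0.00444% each in clone 3, clone 11 and the original cells, and 0% in clone 10, so these comparisons called few probe sets of any kind.

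The slope on Aqp2 addressed whether a phosphodiesterase followed the water channel in amount. Per doubling of Aqp2 signal plus offset, Pde4a changed by 0.07 log2 units (SE 0.06, limma adjusted p = 0.580), Pde4d by 0.07 (SE 0.08, adjusted p = 0.683), Pde7a by 0.03 (SE 0.04, adjusted p = 0.757), Pde5a by 0.02 (SE 0.07, adjusted p = 0.891) and Pde4b by 0.01 (SE 0.06, adjusted p = 0.948). As a description over the 6 lines, r with Aqp2 was 0.77 for Pde4a (rho 0.83) and between 0.12 and 0.33 for the other 4. Without clone 2 and clone 11, the lines farthest from the median Aqp2 signal, r over 4 lines was 0.53 for Pde4a, 0.86 for Pde5a, 0.08 for Pde4d, -0.11 for Pde4b and -0.76 for Pde7a. Other probe sets past the filter gave -0.33 for Pde5a and -0.95 and -0.92 for Pde4b over the same 4 lines. The other 6 of Pde7a gave values from -0.99 to -0.55. Over all 6 lines the Pde7a probe sets gave r from -0.36 to 0.41. The values of r thus depend on which lines are included and, for Pde5a, Pde4b and Pde7a, on which probe set is read. Without clone 2 the slopes of Pde4d, Pde5a and Pde7a turned negative (-0.16, -0.09 and -0.08, with limma adjusted p of 0.690, 0.841 and 0.702).

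**Figure D4:**
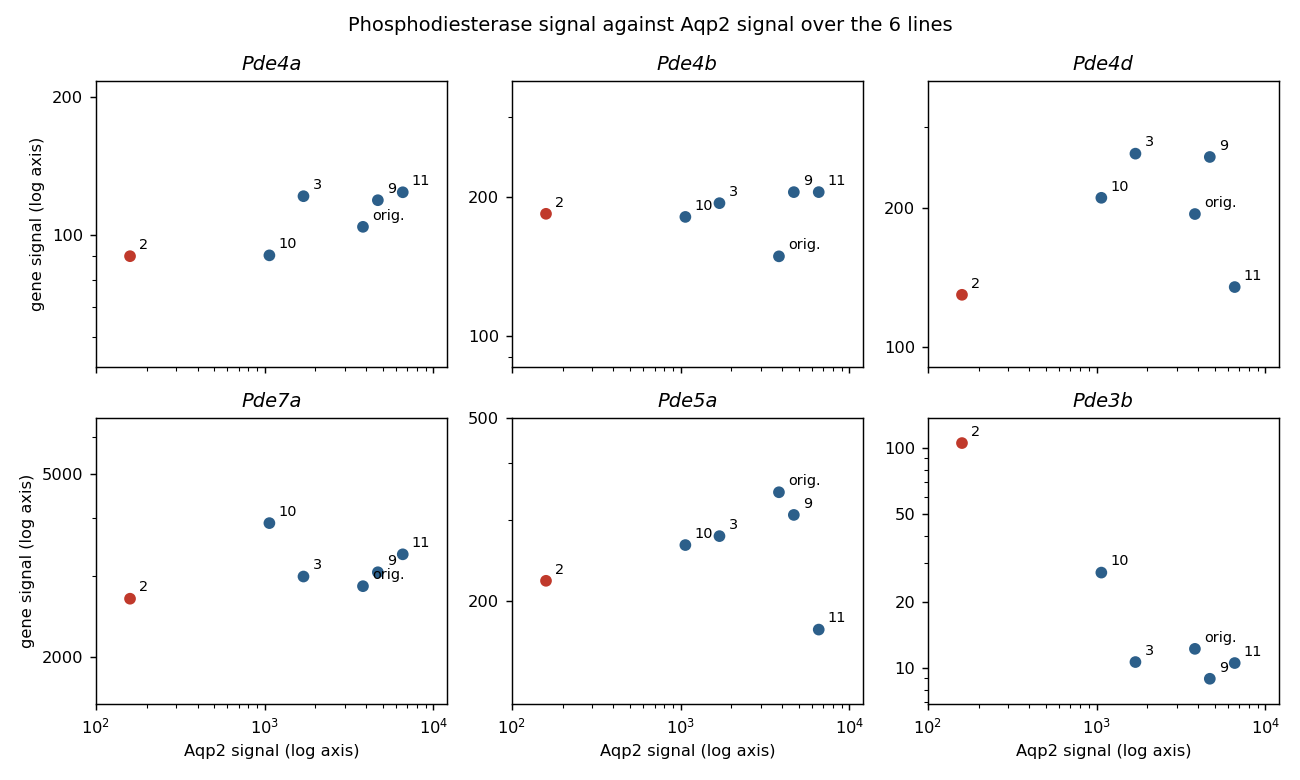
Signal of the 5 tested phosphodiesterases and of Pde3b against the Aqp2 signal, both on log axes in MAS5 units, 1 point per line, clone 2 in red and the expressing lines in blue, labelled by clone number or orig. for the original cells. Pde4d and Pde5a are low both in clone 2 and in clone 11, the lines with the least and the most Aqp2, and Pde3b is highest in clone 2.

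Of the genes that act on both nucleotides, Pde3b had its highest signal in clone 2 but lay below the filter. It encodes a cGMP-inhibited phosphodiesterase known for mediating the effect of insulin on fat breakdown. Its only probe set had a signal of 105.5 in clone 2, against 10.7 in clone 3, 8.95 in clone 9, 27.2 in clone 10, 10.6 in clone 11 and 12.2 in the original cells. Clone 2 was above all expressing lines, as it was in 18.9% of all 45037 probe sets, and clone 10 was next. Ranked within its array, the value was at percentile 53.7 in clone 2 and at percentiles 17.3 to 30.2 in the expressing lines, and no detection calls were used here, so presence in any line was not shown. With no filter, the log2 difference was 1.95 (SE 0.41, 95% interval 1.02 to 2.88, limma unadjusted p = 0.00115, adjusted p = 0.0926), and the slope on Aqp2 was -0.41 (SE 0.09, adjusted p = 0.118), in fits where 0.466% and 0.113% of probe sets were called. Neither passed. The size of the difference depended on the offset, with 3.05 at no offset and 1.48 at a doubled one. Over the settings tried for this gene its limma adjusted p lay between 0.0641 and 0.217. That of the slope lay between 0.115 and 0.293. The median difference of the 749 genes on chromosome 7, which holds Pde3b, was 0.19.

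The other 3 members were low in every line. Pde1a, which encodes a phosphodiesterase activated by calcium and calmodulin, had 42.1 in clone 2, against 2.79 to 30.2 in the expressing lines. Pde8a, which encodes a high-affinity cAMP phosphodiesterase insensitive to the common inhibitor IBMX, had 52.1 in clone 2, against 4.30 to 51.1. Pde10a, best known from the striatum of the brain, had 27.7 in clone 2, against 9.80 to 74.9. With no filter their log2 differences were 1.02 (SE 0.50) for Pde1a, 1.06 (SE 0.58) for Pde8a and -0.08 (SE 0.65) for Pde10a (limma adjusted p = 0.456, 0.531 and 0.973). Another probe set of each gave the opposite sign, so no direction was settled for these genes.

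By a rule on likeness over the 6 lines among 10341 other genes, the profiles closest to that of Pde4d were those of Zfp369 (r = 0.996), Zfp799 (0.98) and Det1 (0.98), and those closest to Pde5a were Ksr1 (0.99), Ubn2 (0.98) and Extl3 (0.96). Zfp799, for example, had a signal of 181 in clone 2 and 233 in clone 11, and 330 to 538 in the other lines. These values describe 6 points per gene.

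The wider cyclic nucleotide machinery was read from lists of genes, each with 1 probe set, and counts at an unadjusted p under 0.05 in clone 2 stand against the 20% of all probe sets that passed it. Of 14 other phosphodiesterase genes 3 passed the filter and 0 were called (limma, with 0 at an unadjusted p under 0.05). Pde6d, which encodes a carrier of prenylated proteins rather than an enzyme, had 1166 in clone 2 against 1155 ± 73.0 (SD, n = 5). Pde2a, the cGMP-stimulated phosphodiesterase, had 549.5 in clone 2 against 485 ± 86.6. Of 5 partners of phosphodiesterases past the filter 0 were called (2 at an unadjusted p under 0.05). Ndel1, which binds PDE4 in neurons, had 2830.5 in clone 2 against 2146 ± 172, and Akap9, an anchoring protein of the Golgi and centrosome, had 1812 against 1859.5 ± 171.

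Among 10 genes of cAMP synthesis and its receptors past the filter 4 had an unadjusted p under 0.05 in clone 2 (limma). By adjusted p 1 of them fell in clone 2, where 1.67% of all probe sets fell. This was Ptger1, a prostaglandin E2 receptor known for coupling to calcium rather than to cAMP. Its signal was 11.2 in clone 2 and averaged 131 ± 42.5 in the expressing lines (SD, n = 5), which made -2.27 on the log2 scale (SE 0.42, limma adjusted p = 0.0338). Ptger1 passed the filter only through the expressing lines and its clone 2 signal lay below the offset of 18.8, and the size depended on the offset, with -3.48 at no offset and -1.75 at a doubled one. The call was lost without clone 10 (adjusted p = 0.0598), clone 11 (0.0549) or the original cells (0.0806). Unfiltered data also lost it (0.0826). Over all settings the adjusted p lay between 0.0179 and 0.0826. Of 4 genes of cGMP synthesis 0 were called (2 at an unadjusted p under 0.05), with Nos3, endothelial nitric oxide synthase, at 237 in clone 2 against 163 ± 23.1 and Npr3, the natriuretic peptide clearance receptor, at 67.5 against 187 ± 64.9.

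Of 11 effectors of cyclic nucleotides 0 were called in clone 2 (4 at an unadjusted p under 0.05). Prkar1a, a regulatory subunit of protein kinase A, had 6171 in clone 2 against 6179 ± 426 (SD, n = 5), and Prkaca, a catalytic subunit, had 3246 against 2308 ± 126 (limma adjusted p = 0.0960). In the slope on Aqp2, where 1.02% of probe sets were called with a positive sign, 1 effector was called, Pkia, an inhibitor of protein kinase A, named after its value was seen, with 0.28 log2 units per doubling (SE 0.05, limma adjusted p = 0.0387). That call was lost without clone 3 (adjusted p = 0.0625), clone 9 (0.0573), clone 11 (0.0661), the original cells (0.0885) or clone 2 (0.464), and with unfiltered data (0.0861) or no eBayes trend (0.0852). The cyclic nucleotide exporters Abcc4 and Abcc5 were not called (1, Abcc4, at an unadjusted p under 0.05). Abcc4 had 892 in clone 2 against 2083 ± 529, and Abcc5 had 442 against 558 ± 97.5. Of 10 genes known as induced by cAMP 0 were called (2 at an unadjusted p under 0.05), with the immediate early gene Fos at 1824 in clone 2 against 1826 ± 784 and the phosphatase gene Dusp1 at 869 against 1711 ± 420.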

How the data were processed

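Per the submitters' processing notes, the deposited values were MAS5 signal intensities made with Affymetrix Expression Console 1.1. From the deposited signal intensities, a mean that trims 2% of values at either end came to 500.0 on all 6 arrays, so they share 1 scale. Scanner files and detection calls were not used here. Of 45101 probe sets 64 controls were left out, and symbols came from the platform annotation, updated by gene identifier to a RefSeq table of GRCm38.p6 (34741 of 34945 single-gene probe sets matched). Signals were used as log2(signal + 18.8), an offset equal to percentile 25 of all values. Probe sets with a mean signal above the median of 85.5 were kept. Differences, two-sided, were fitted with limma 3.58.1 in R 4.3.3 (lmFit, eBayes with trend, Benjamini-Hochberg over all kept probe sets, threshold 0.05). Residual degrees of freedom numbered 4 in the clone 2 and slope models and 3 for single expressing lines. A lone line was assumed to vary like the others. The fits were tested on simulated data with known changes.

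The members, gene lists and rule for named genes (members, called genes per list or else the 2 of highest mean signal, and the 3 most alike profiles for the 2 members of widest range) were chosen with earlier results of these data known. Alternatives were the offset, filter, scaling, eBayes options, other probe sets and leaving out lines.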

Additional observations from a re-analysis of the deposited data

Results flagged for a closer look

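Pde3b in clone 10, with a signal of 27.2, lay apart from the other 4 expressing lines, which had 8.95 to 12.2 (gap over range 0.820, critical value 0.71). Its distance was the only one past this limit among 19 probe sets of the members and Aqp2 examined over the 5 expressing lines, where chance gives about 1 in 20. All of these signals were low.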

How the results depend on the processing

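Under every alternative run, 0 of the members were called in the clone 2 comparison, in the slope on Aqp2 and in the single expressing lines, and the other probe sets also gave 0. The total number of probe sets called for clone 2 was 560 and moved to 210 with no filter, to 219 without the eBayes trend and to between 154 and 943 when 1 expressing line was left out (154 without the original cells, 943 without clone 9). For the chosen probe sets, differences in clone 2 kept their sign for Pde4a, Pde4d, Pde5a and Pde7a in all alternatives, Pde4d lying between -0.74 and -0.51. Other probe sets below the filter, fitted with no filter after seeing the data, turned to 0.085 for Pde4d (slope -0.033), 0.067 for Pde5a and 0.094 for Pde4b. The difference of the chosen Pde4b probe set turned to 0.050 with quantile normalization and 0.080 with median centring. It lay between -0.084 and 0.021 with 1 line left out (above 0 without clone 3, 9 or 11). The Pde4b slope turned to -0.0029 with median centring and -0.0027 in another probe set. That of the chosen probe set lay between -0.0085 and 0.032 with 1 line left out (below 0 without clone 9 or 11). With 1 line left out, slopes lay between -0.16 (without clone 2) and 0.16 (without clone 11) for Pde4d, between -0.092 (without clone 2) and 0.11 (without clone 11) for Pde5a, which was also below 0 without the original cells at -0.0040, and between -0.081 (without clone 2) and 0.046 (without clone 10) for Pde7a. Another Pde5a probe set gave -0.033, and 4 other Pde7a probe sets gave -0.054, -0.020, -0.0055 and -0.0039. Of the members below the filter, in fits chosen after seeing the data, other probe sets gave differences of -0.69 for Pde1a, -0.26 for Pde8a and 0.54 for Pde10a and slopes of 0.15, 0.042 and -0.085, and the Pde10a difference was 0.035 with no offset. With 1 line left out it lay between -0.28 (without clone 10) and 0.15 (without clone 3), and its slope between -0.0022 (without clone 11) and 0.11 (without clone 9), with -0.0018 without clone 10. None of these values was called, and the cause was not tested. No paired analysis was possible because 1 group has a single array and replicate numbers only name the lines. The number of arrays limits the precision, and the low signals of MAS5 are noisy.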

Other observations

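Several signalling genes outside the rule for named genes, picked after their values were seen, had a signal in clone 2 above all 5 expressing lines, as 24.3% of probe sets past the filter did, without passing the test. Prkg2, the cGMP-dependent protein kinase of epithelia, had 1329 in clone 2 against 307 to 775 (limma adjusted p = 0.110). Adcy9, an adenylyl cyclase, had 431 against 81.5 to 275 (adjusted p = 0.236), and Arrb1, which encodes a beta-arrestin, had 354 against 57.0 to 239 (adjusted p = 0.223). Ppargc1a, a cAMP-induced coactivator gene of mitochondrial biogenesis, was below all 5, with 17.4 in clone 2 against 59.3 to 412 (adjusted p = 0.127). Clone 2 was below all 5 in 29.3% of probe sets past the filter. Ppargc1a passed the filter only through the expressing lines, and its clone 2 signal lay below the offset. Its difference and p-value thus rest on a signal near the floor, and their dependence on the offset was not tested. For the slope on Aqp2 the adjusted p was 0.0580 for Adcy9 and 0.0813 for Arrb1, both with a negative slope.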
